A study of Mus musculus with 9 samples.

Results

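The glucocorticoid receptor and 5 genes tied to its action were followed in mouse T follicular helper cells (Tfh), which help B cells, sorted from Peyer's patches, a gut lymphoid tissue. These 6 genes, Nr3c1, Hsd11b1, Tsc22d3, Fkbp5, Sgk1 and Per1, were taken by symbol from the 54146 genes of the count table. They were chosen with their values in the comparison of the 2 genotypes already known, so their differences between the genotypes are given as a description, with no test. Each symbol had 1 row, and all 6 genes were among the 15521 that passed the filter on low counts.

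Cells heterozygous for a mutation of Tgfbr1 (WT/mut, 5 libraries, replicates 6 to 10) were set against cells of littermates with both alleles wild type (WT, 4 libraries, replicates 1, 3, 4 and 5). The product of Tgfbr1 is part of the TGF-beta receptor. In both genotypes the cells were sorted as CD4+CXCR5+PD1+ from Peyer's patches, and 300 pg of RNA was turned into each library by an unstranded SMART-Seq kit for low input. The labels used here name neither the mutation nor the age, sex, litter or sorting time of the mice. Whether every library stands for a separate mouse is not given either, so errors and p-values cover the spread among these libraries, which may be technical.

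Glucocorticoids are steroid hormones of the adrenal gland, and the intestinal epithelium is known to make them too. The receptor, the product of Nr3c1, waits in the cytosol in a complex with heat shock proteins, moves to the nucleus when it binds hormone, and turns on genes that carry its binding element, an inverted repeat of AGAACA around a spacer of 3 bases. Tsc22d3 (its protein is known as GILZ), Fkbp5, Sgk1 and Per1 are among the genes that glucocorticoids induce in many cell types, while Hsd11b1 encodes an enzyme that makes active hormone from its inactive form inside the cell. In T cells glucocorticoids are best known for dampening cytokine genes and for inducing death of thymocytes.

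Total counts lay between 29488783 and 43872686 per library. The 9 Tfh markers summed to between 6277 and 6591 CPM (counts scaled to library size, with TMM factors) in WT/mut libraries and between 6367 and 7795 CPM in WT libraries. None of the 9 was at 0 in any library, though a sum of markers alone does not establish the identity of the cells. The 7 plasma cell markers summed to between 433 and 1109 CPM in WT/mut libraries and between 240 and 323 CPM in WT libraries, with no overlap between the groups and a positive log2 fold change, WT/mut over WT, for 5 of the 7. The 8 B cell markers spanned 122 to 446 CPM in WT/mut and 63.2 to 229 CPM in WT libraries, with a positive fold change for all 8, and edgeR called 0 genes of either list. The 10 myeloid and dendritic markers spanned 168 to 423 CPM in WT/mut and 164 to 339 CPM in WT, the 10 stromal and endothelial markers 158 to 225 CPM in WT/mut and 144 to 196 CPM in WT, and the 10 epithelial markers 35.5 to 279 CPM in WT/mut and 52.6 to 490 CPM in WT. The fold change was negative for 9 of 10 epithelial and 6 of 9 Tfh markers and positive for 7 of 9 tested myeloid and 4 of 5 tested stromal markers, with 0 called by edgeR. Only 0.122% of all tested genes were called, so 0 calls in lists this short say little. Of the Tfh markers, Icos and Il21 had separate ranges and were lower in WT/mut. No defining marker of B cells or plasma cells was at 0 in any library, while between 2 and 7 of the stromal and endothelial markers were at 0 in each library. The part of these cells in the values below was not tested. WT/mut replicate 7 stood apart, with a count in 30143 genes against 17904 to 20264 genes in the other 8 libraries.

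The receptor's element was looked for in the promoters of the members, because it is a sequence that the receptor binds. RefSeq promoter windows of 300 bases (GRCm38.p6, 250 bases before to 50 after a start site) were at hand for 5 members, 13 windows in all. The full element, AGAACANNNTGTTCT, which reads the same on both strands, was in 1 of the 13 windows, at a start site of Sgk1 on the plus strand of chromosome 10. Across all 32851 windows kept it was in 3, or 0.00913%. The match ends 175 bases before the start site at position 21993890. The Sgk1 gene spans 21882184 to 21999903 of chromosome 10, and the 250 bases upstream of this start site hold no annotated exon. They are printed with the full element in capitals, beside the 250 bases upstream of the preceding Sgk1 start site, where capitals mark a single repeat unit.
Sgk1, chr10:21993640-21993889, plus strand, full element: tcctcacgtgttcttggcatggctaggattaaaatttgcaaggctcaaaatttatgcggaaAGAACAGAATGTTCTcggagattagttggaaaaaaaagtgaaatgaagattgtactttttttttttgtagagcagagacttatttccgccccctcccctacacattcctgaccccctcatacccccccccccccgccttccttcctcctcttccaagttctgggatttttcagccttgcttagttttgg
Sgk1, chr10:21991973-21992222, plus strand, single repeat: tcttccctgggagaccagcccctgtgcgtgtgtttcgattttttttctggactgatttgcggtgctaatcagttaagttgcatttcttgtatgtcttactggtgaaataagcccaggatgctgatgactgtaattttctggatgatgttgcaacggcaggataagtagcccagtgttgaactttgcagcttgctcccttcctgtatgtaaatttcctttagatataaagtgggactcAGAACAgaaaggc

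A single repeat unit, AGAACA or its complement TGTTCT, was in 4 of the 13 windows, of which 3 belong to Sgk1 (the window with the full element among them) and 1 to Tsc22d3. Of all windows kept, 19.0% hold such a unit, those with the full element counted among them. The windows of Hsd11b1, Fkbp5 and Per1 hold neither form, which says only that these letters are not in these windows. The table counts reads per gene, so it does not say from which start site the Sgk1 transcripts came.

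Per kilobase of exon, Fkbp5, Hsd11b1, Nr3c1 and Tsc22d3 were the abundant members, with Sgk1 below them and Per1 lowest in both genotypes. Fkbp5 encodes a co-chaperone that binds HSP90 in the receptor complex and holds back hormone binding. Its level was 52.3 ± 5.1 CPM per kb in WT/mut (SD, n = 5) and 42.9 ± 5.3 CPM per kb in WT (SD, n = 4). Hsd11b1 was at 43.7 ± 5.7 CPM per kb in WT/mut and at 67.6 ± 27.8 CPM per kb in WT. Nr3c1 was at 37.7 ± 1.8 CPM per kb in WT/mut and 35.9 ± 2.7 CPM per kb in WT. The level of Tsc22d3 was 34.6 ± 5.2 CPM per kb in WT/mut and 19.1 ± 3.2 CPM per kb in WT. Sgk1 stood at 8.34 ± 1.09 CPM per kb in WT/mut and 6.20 ± 0.55 CPM per kb in WT, and Per1 at 1.77 ± 0.29 CPM per kb in WT/mut and 1.00 ± 0.41 CPM per kb in WT.

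In WT/mut cells the ranges of neighbours in this order overlapped down to Tsc22d3, while Fkbp5 lay wholly above Nr3c1 and Tsc22d3. Sgk1 and Per1 lay below these 4 genes with separate ranges. In WT cells Hsd11b1 led Fkbp5 with overlapping ranges, while Fkbp5, Nr3c1, Tsc22d3, Sgk1 and Per1 had separate ranges. The lowest Fkbp5 (39.7 CPM per kb) was only just above the highest Nr3c1 (39.4 CPM per kb). The place of Tsc22d3 differed in this respect: its level per kb overlapped that of the receptor gene in WT/mut libraries (26.8 to 40.9 against 34.9 to 39.8 CPM per kb) and lay below it in all 4 WT libraries (14.9 to 22.7 against 33.04 to 39.4 CPM per kb).

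**Figure D1:**
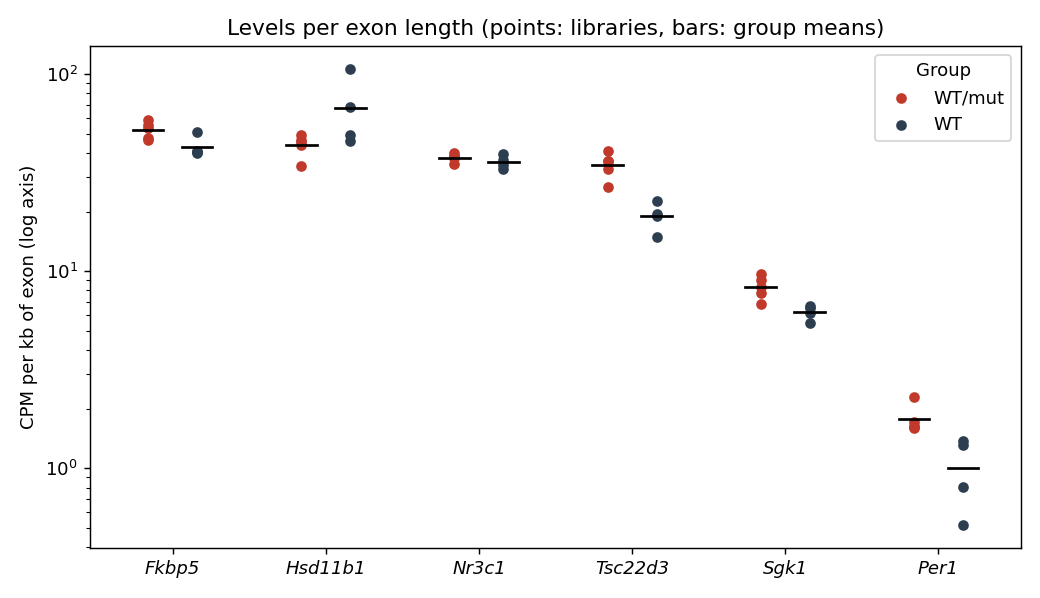
Level per library in CPM per kb of exon on a log axis, for WT/mut (red, n = 5) and WT (dark, n = 4), with bars at the group means. Fkbp5, Hsd11b1, Nr3c1 and Tsc22d3 lie between 26.8 and 58.7 CPM per kb in WT/mut, Tsc22d3 is at most 22.7 CPM per kb in WT, and Per1 is lowest in both.

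Nr3c1 (ENSMUSG00000024431.14, chromosome 18), the receptor gene itself, was the steadiest member. It was measured at 291, 296, 268, 289 and 306 CPM in WT/mut replicates 6 to 10, and at 281, 267, 254 and 302 CPM in WT replicates 1, 3, 4 and 5. The groups overlapped over most of their range. The log2 fold change, WT/mut over WT, was 0.07 ± 0.08 (SE), and the coefficient of variation was 4.71% in WT/mut and 7.47% in WT. In bulk RNA of sorted cells, fewer expressing cells and less RNA per cell cannot be told apart, for this gene and for all that follow.

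Hsd11b1 (ENSMUSG00000016194.14, chromosome 1, 193221634 to 193264075 on GRCm38) was the only member with a lower mean in WT/mut cells. It stood at 192, 186, 209, 145 and 196 CPM in WT/mut replicates 6 to 10, against 453, 210, 196 and 291 CPM in WT replicates 1, 3, 4 and 5. WT replicates 1 and 5 were high, while WT replicates 3 and 4 were level with the highest WT/mut libraries. The log2 fold change of -0.63 ± 0.22 (SE) depended on 1 library, since it was -0.32 without WT replicate 1. The coefficient of variation was 13.0% in WT/mut and 41.2% in WT, close to the 41.1% of Per1 in WT. A long non-coding gene and 2 other annotated genes overlap Hsd11b1 without sharing an exon, and none of them exceeded 12.2 CPM in any library.

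The enzyme made by Hsd11b1 draws its cofactor from H6pd, a dehydrogenase of the endoplasmic reticulum. H6pd had 29.6, 34.4, 28.3, 32.3 and 23.6 CPM in WT/mut replicates 6 to 10, against 15.3, 23.6, 24.9 and 13.1 CPM in WT replicates 1, 3, 4 and 5. The 2 WT libraries with the most Hsd11b1 had the least H6pd. These 2 libraries also had the least Bcl6 and Pdcd1, which are outside the pathway. Its log2 fold change of 0.63 ± 0.21 did not pass (edgeR adjusted p = 0.300, between 0.105 and 0.532 under the alternatives). Hsd11b2, whose enzyme inactivates the hormone, had 4 counts over all 9 libraries. Of the genes for steroid synthesis enzymes on the list, Cyp11a1 had 7 counts, Cyp11b1 8, and Cyp21a1 and Hsd3b1 0. Star, whose product brings cholesterol into mitochondria for this synthesis, had 390 counts and passed the filter, with overlapping ranges (log2 fold change 0.21 ± 1.02, edgeR adjusted p = 0.950). A count of 0 over the 318579620 counts of the series allows up to 3 counts, or 0.00942 CPM, which covers counting error only.

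Tsc22d3 (ENSMUSG00000031431.13, chromosome X, 140539528 to 140600659) encodes a leucine zipper protein known to restrain the factors NF-kappa-B and AP-1. It was at 157, 143, 177, 157 and 116 CPM in WT/mut replicates 6 to 10, and at 83.0, 64.6, 84.5 and 98.7 CPM in WT replicates 1, 3, 4 and 5. Every WT/mut library was above every WT library. The log2 fold change was 0.86 ± 0.15 (SE), a ratio of 1.81, and stayed between 0.76 and 0.96 when any 1 library was left out.

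Sgk1 (ENSMUSG00000019970.15), a kinase gene known for salt transport in the kidney and for type 17 helper cells, was at 44.5, 33.6, 47.3, 38.1 and 41.0 CPM in WT/mut replicates 6 to 10. In WT replicates 1, 3, 4 and 5 it was at 26.7, 32.9, 31.8 and 30.2 CPM. The groups did not overlap, though WT/mut replicate 7 lay only just above WT replicate 3. The log2 fold change was 0.43 ± 0.13 (SE), and it ranged from 0.37 to 0.49 without 1 library.

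Per1 (ENSMUSG00000020893.17, chromosome 11, 69095217 to 69109960), a repressor of the circadian clock that hormone also induces acutely, was the least abundant member. Its rounded counts ran from 92 to 411 per library. It stood at 9.20, 12.9, 9.71, 9.12 and 8.99 CPM in WT/mut replicates 6 to 10, against 2.91, 7.38, 7.77 and 4.55 CPM in WT replicates 1, 3, 4 and 5. The groups did not overlap. WT replicates 1 and 5, the libraries with the most Hsd11b1, had the least Per1, as they had of Bcl6 and Pdcd1 outside the pathway. The log2 fold change was 0.82 ± 0.29 (SE), with 0.61 to 1.02 as its range without 1 library.

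Fkbp5 (ENSMUSG00000024222.16, chromosome 17, 28399094 to 28517527) was at 452, 503, 524, 441 and 556 CPM in WT/mut replicates 6 to 10, and at 481, 376, 381 and 388 CPM in WT replicates 1, 3, 4 and 5. Without WT replicate 1, which lay among the WT/mut libraries, the groups would be separate. The log2 fold change was 0.28 ± 0.11 (SE) with all libraries and 0.38 without WT replicate 1.

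Among the 4 induced targets the ratio of WT/mut to WT thus ran from 1.22 for Fkbp5 and 1.35 for Sgk1 to 1.76 for Per1 and 1.81 for Tsc22d3. The 3 of 6 members with separate CPM ranges, Tsc22d3, Sgk1 and Per1, were all higher in WT/mut. Over all 15521 tested genes the ranges were separate in 4.46%, with WT/mut higher in 2.09% and lower in 2.38%. Since the members were chosen on this contrast, nothing is read from that count. The summed plasma cell markers, given above, were separate between the groups in the same direction, with Igha and Jchain as the markers of separate ranges.

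**Figure D2:**
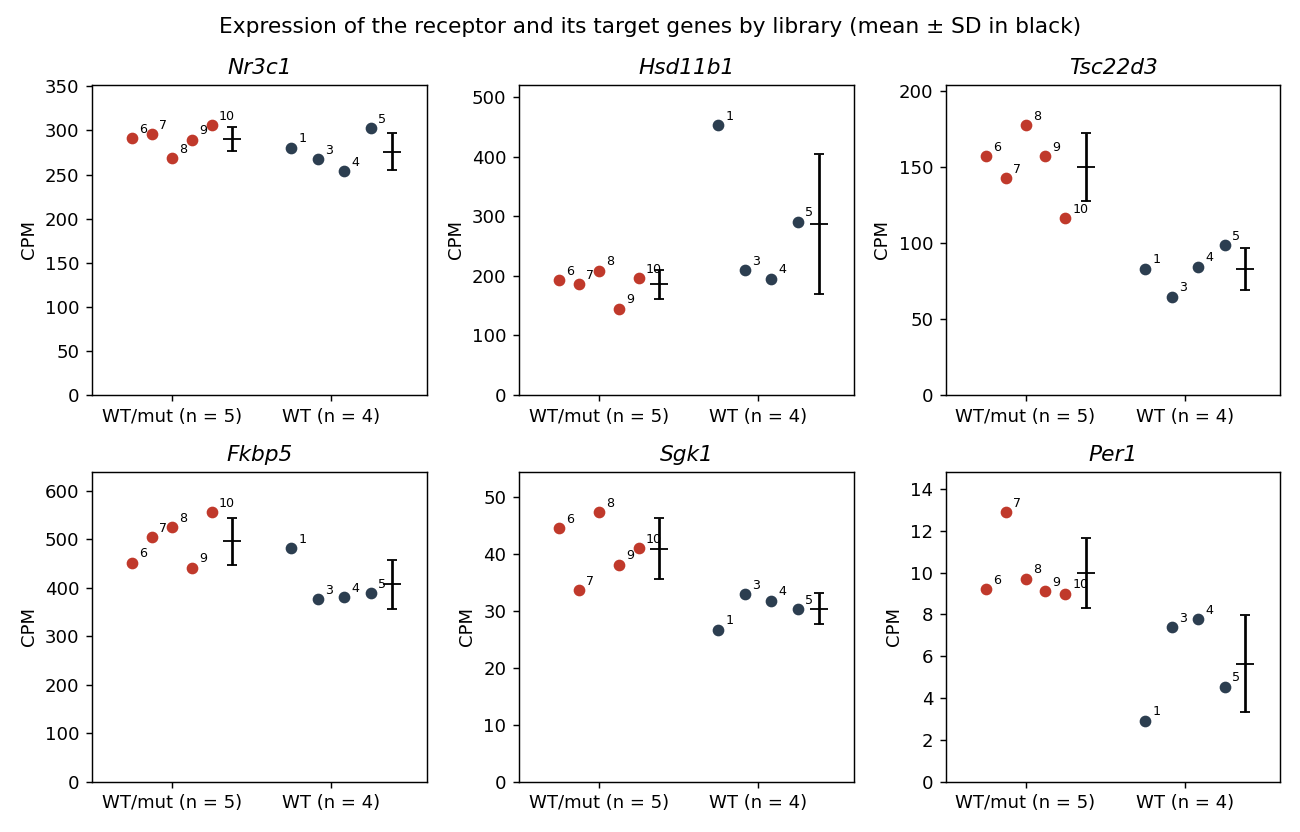
CPM of each member by library, with replicate numbers beside the points and the mean ± SD of each group in black (WT/mut, n = 5, left, and WT, n = 4, right). Tsc22d3, Sgk1 and Per1 do not overlap between the groups, Fkbp5 and Hsd11b1 overlap through single libraries or pairs of them, and Nr3c1 overlaps throughout.

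**Figure D3:**
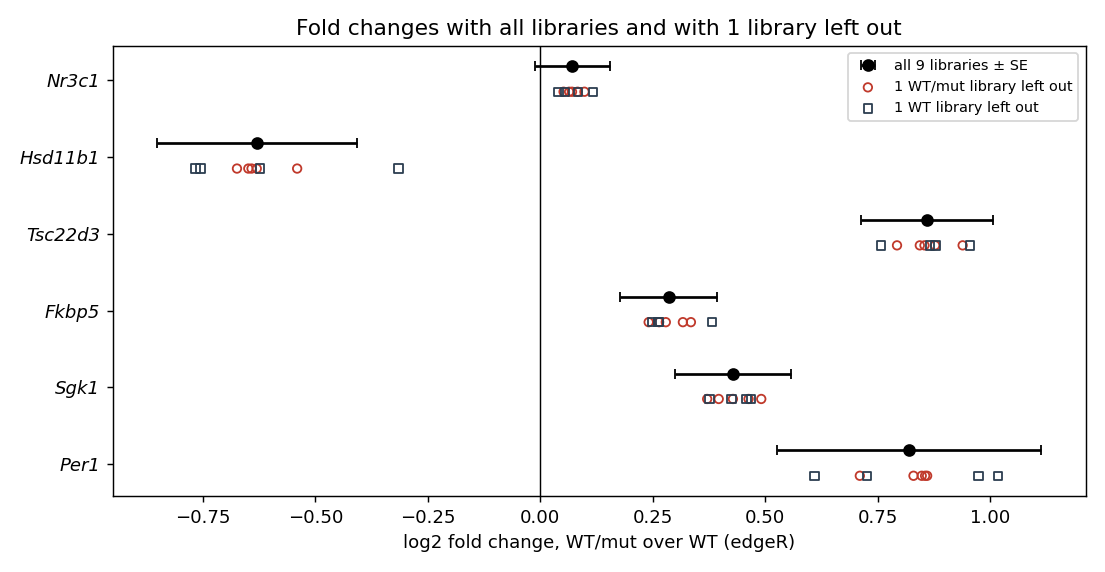
Log2 fold change of each member, WT/mut over WT, with all 9 libraries (black, ± SE) and with 1 library left out (red circles for WT/mut, dark squares for WT). Each member keeps its sign, and Hsd11b1 moves most, to -0.32 without WT replicate 1.

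How the members varied together was described by Pearson's r of log2 CPM over the 9 libraries, which share the difference between the genotypes. Tsc22d3 and Sgk1 gave r = 0.76 (Spearman's rho 0.83), Sgk1 and Per1 r = 0.70 (rho 0.80), and Tsc22d3 and Fkbp5 r = 0.60 (rho 0.55). These values fell away once the mean of each group was subtracted, to 0.10 for Tsc22d3 and Sgk1, to 0.25 for Sgk1 and Per1, and to -0.16 for Tsc22d3 and Fkbp5. After subtraction the 6 pairs among the induced targets lay between -0.57 (Fkbp5 and Per1) and 0.25. The median over the 15 pairs was 0.28 before and -0.16 after subtraction.

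Over the 9 libraries Hsd11b1 and Per1 ran in opposite directions before and after this subtraction, though the opposite order was seen among WT libraries only. Their r was -0.90 (rho -0.75) over the 9 libraries, and -0.84 (rho -0.77) with group means subtracted. Without WT replicate 1, and with no means subtracted, r was -0.73. In WT libraries Per1 was at 2.91 and 4.55 CPM where Hsd11b1 was at 453 and 291 CPM, and at 7.38 and 7.77 CPM where Hsd11b1 was at 210 and 196 CPM. Genes outside the pathway also split WT replicates 1 and 5 from 3 and 4, so this order is not particular to the pair. Bcl6 was at 316 and 321 CPM in replicates 1 and 5, against 398 and 434 CPM in replicates 3 and 4. Pdcd1 was at 1497 and 1535 CPM, against 2033 and 2197 CPM. Il21 and Sh2d1a were instead highest in replicates 1 and 5 within WT. Among WT/mut libraries, replicate 9 had the least Hsd11b1 (145 CPM) and 9.12 CPM of Per1. WT/mut replicate 8 had the most Hsd11b1 (209 CPM) and 9.71 CPM of Per1. Hsd11b1 and Fkbp5 gave r = 0.80 after subtraction of the means and -0.02 before. WT replicate 1 had the most of both among WT libraries (453 CPM of Hsd11b1 and 481 CPM of Fkbp5). Without this library r before subtraction was -0.29, and r after subtraction was not computed.

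**Figure D4:**
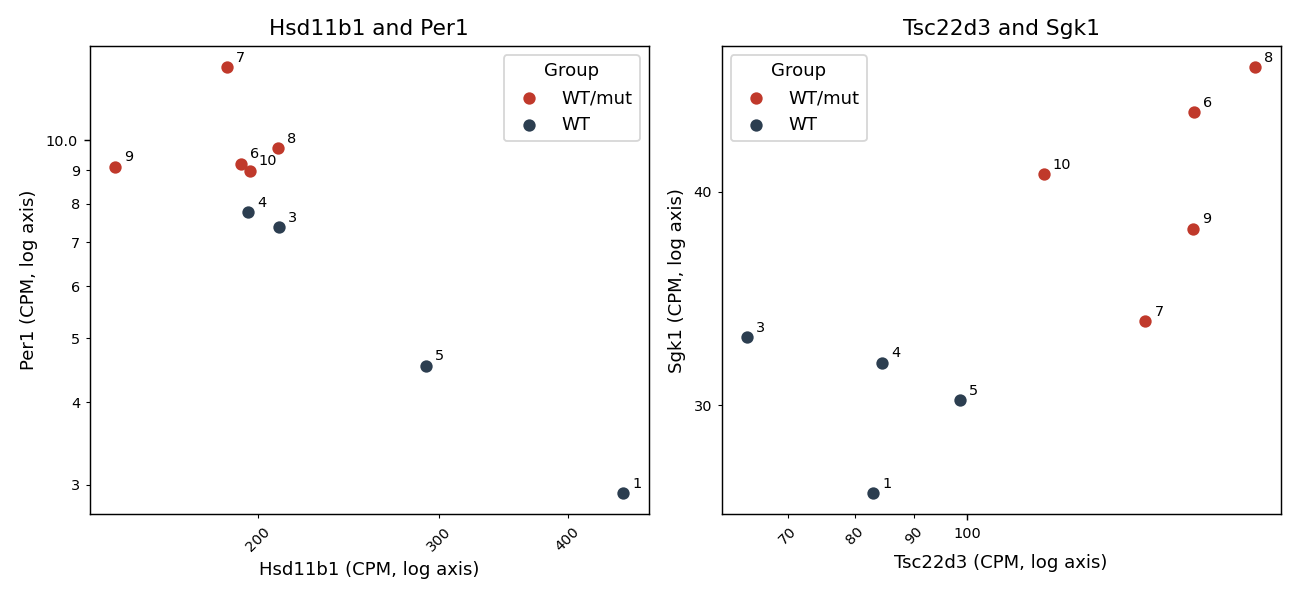
CPM of pairs of members in the 9 libraries on log axes, WT/mut in red and WT in dark, with replicate numbers. Per1 is lowest in the WT libraries 1 and 5, where Hsd11b1 is highest, while Tsc22d3 and Sgk1 separate the genotypes, with WT/mut libraries 8 and 6 highest for both.

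The genes whose pattern over the 9 libraries was most like that of a member were picked as the highest r among 14341 other genes, so high values are built into the choice. For Nr3c1 they were Suco (r = 0.94), RP24-77I21.2 (0.91) and Pts (0.90). For Hsd11b1 they were the kinase gene Prkch, the protease gene Ctsb and the cytokine receptor chain Il2rg, with r = 0.99, 0.99 and 0.98. For Tsc22d3 they were Nedd4 (0.96), Trim33 (0.96) and Dclre1c (0.96). For Fkbp5 they were Scarb2 (0.96), Gpm6b (0.95) and Tceal3 (0.93). For Sgk1 they were Mcf2l (0.96), Ppp2r4 (0.95) and AC093451.2 (0.93), and for Per1 Fam193b (0.99), Snrnp200 (0.98) and Plxnd1 (0.98). With group means subtracted, r was 0.98 for Prkch with Hsd11b1 and for Fam193b with Per1, and 0.80 for Nedd4 with Tsc22d3. These values come from the same 9 libraries as the choice, so they are no separate check.

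The wider pathway was described through 8 lists of genes that are not members, 111 genes in all, of which 97 were tested. With edgeR 0 of the 97 passed an adjusted p of 0.05 in either direction, against 0.122% of all tested genes (0.0322% higher and 0.0902% lower). An unadjusted p under 0.05 was reached by 9 higher and 11 lower genes, or 20.6% of the 97, against 12.2% of all tested genes (5.69% higher and 6.46% lower). DESeq2 called 1 higher (Nedd4) and 4 lower (Il1r2, Bhlhe40, Csf2 and Rora), against 2.82% of all genes with an adjusted p in DESeq2 (1.53% higher and 1.29% lower). Of the list genes limma-voom called 0, against 0.116% of all tested genes. CPM ranges were separate for 2 higher and 5 lower genes, or 7.22%, against 4.46% of all tested genes. The median log2 fold change was 0.06, against 0.00 over all tested genes. Since the lists were chosen with earlier results of these data known, nothing is read from the shares of list genes. Il1r2, Bhlhe40, Csf2 and Rora had been seen to differ before.

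The proteins that fold and hold the receptor showed no called gene among 13 tested. Their median log2 fold change was 0.09, with 7 positive and 6 negative. The lowest p belonged to St13, a cofactor of HSP70 (0.30 ± 0.11, adjusted p = 0.340), to Hsp90ab1, which encodes an HSP90 that binds the receptor (0.46 ± 0.19, adjusted p = 0.383), and to Dnajb1, a partner of HSP70 (-0.38 ± 0.18, adjusted p = 0.416). Hsp90ab1 averaged 1169 ± 211 CPM in WT/mut, against 851 ± 250 CPM in WT (SD).

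Of 14 coregulators of nuclear receptors, 10 had a positive and 4 a negative fold change, with a median of 0.24 and none called. The corepressor gene Nrip1 was at 286 ± 14 CPM in WT/mut, against 238 ± 27 CPM in WT (0.26 ± 0.09, adjusted p = 0.329). The coactivator gene Ncoa1 was at 0.32 ± 0.12 (adjusted p = 0.337), and Med1, a Mediator subunit that binds nuclear receptors, at 0.29 ± 0.11 (adjusted p = 0.337), with separate ranges for Med1.

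Of 16 genes for other steroid receptors and for steroid handling, 7 were tested, all with a positive fold change and none called. After H6pd the lowest p belonged to Abcb1b, a transporter that exports glucocorticoids (0.62 ± 0.31, adjusted p = 0.450), and to Nr3c2, the mineralocorticoid receptor, which also binds glucocorticoids (0.26 ± 0.20, adjusted p = 0.601). Nr3c2 stood at 12.6 ± 1.8 CPM in WT/mut, against 10.5 ± 2.6 CPM in WT.

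Of 19 other tested genes known to be induced by glucocorticoids, 0 were called by edgeR. The fold change was positive for 13 and negative for 6, around a median of 0.12. The 2 genes of lowest p had negative fold changes. Il1r2, the decoy receptor for interleukin 1, was at 147, 144, 135, 120 and 160 CPM in WT/mut replicates 6 to 10 and at 204, 239, 193 and 210 CPM in WT replicates 1, 3, 4 and 5, with separate ranges (-0.58 ± 0.10, adjusted p = 0.0709, 5e-05 to 0.173 under the alternatives). Dusp1, a phosphatase gene also induced by stress and growth signals, was at 314 ± 88 CPM in WT/mut, against 543 ± 214 CPM in WT (-0.79 ± 0.26, adjusted p = 0.312), with 841 CPM in WT replicate 1. Il7r, the receptor for interleukin 7, was at 0.29 ± 0.14 (adjusted p = 0.433).

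Among 9 tested genes known to be repressed, 3 had a positive and 6 a negative fold change, with a median of -0.32. Csf2, the gene of the cytokine GM-CSF, was at 0.784 ± 0.311 CPM in WT/mut, against 2.70 ± 0.45 CPM in WT, with separate ranges (-1.78 ± 0.42, adjusted p = 0.174). Il2 had 94 counts over all 9 libraries, at 0.446 ± 0.183 CPM in WT/mut, against 0.129 ± 0.106 CPM in WT (1.74 ± 0.82, adjusted p = 0.421). Tnf was at -0.34 ± 0.21 (adjusted p = 0.508). With edgeR 0 of the 9 were called.

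Relatives of the members gave no call among 11 tested, with 4 positive and 7 negative fold changes and a median of -0.06. Fkbp2 was at -0.33 ± 0.16 (adjusted p = 0.431), and Fkbp4, whose product opposes that of Fkbp5 in the receptor complex, at 0.25 ± 0.16 (adjusted p = 0.519). The list around SGK1 holds kinases that switch it on, parts of their complexes, proteins tied to its action and its relative Sgk3. Of these genes 12 were tested, with 8 positive and 4 negative fold changes, a median of 0.25 and none called. Nedd4, a ubiquitin ligase gene, was at 16.7, 14.2, 15.8, 13.4 and 10.9 CPM in WT/mut replicates 6 to 10 and at 5.98, 5.54, 8.21 and 7.66 CPM in WT replicates 1, 3, 4 and 5 (1.05 ± 0.20, adjusted p = 0.0887, 2.54e-05 to 0.218 under the alternatives). Of the subunits of the complex that activates SGK1, Mapkap1 was at -0.33 ± 0.12 (adjusted p = 0.331) and Rictor at 0.25 ± 0.14 (adjusted p = 0.491).

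The list of clock genes other than Per1 was also chosen with earlier results known, so nothing is read from its signs or counts. Of 17 tested, 4 were positive and 13 negative, with a median of -0.22, against 0.00 over all tested genes. With edgeR 0 of the 17 were called. An unadjusted p under 0.05 was reached by 6, all lower in WT/mut, where 12.2% of all tested genes reached it and 6.46% did so as lower genes. The lowest p belonged to Bhlhe40 (-0.51 ± 0.10, adjusted p = 0.0922) and Rora (-0.32 ± 0.10, adjusted p = 0.274), which also have roles in helper T cells outside the clock, and to Nr1d1, a repressor of the clock (-0.88 ± 0.31, adjusted p = 0.323). All 3 had separate ranges, and Bhlhe40 and Rora had been seen to differ before. The closest relatives of Per1 stood at 0.13 ± 0.30 for Per2 (adjusted p = 0.884) and -0.30 ± 0.32 for Per3 (adjusted p = 0.722), against 0.82 ± 0.29 for Per1 itself. The labels used here give no time of day, so time of sorting and genotype cannot be told apart.

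**Figure D5:**
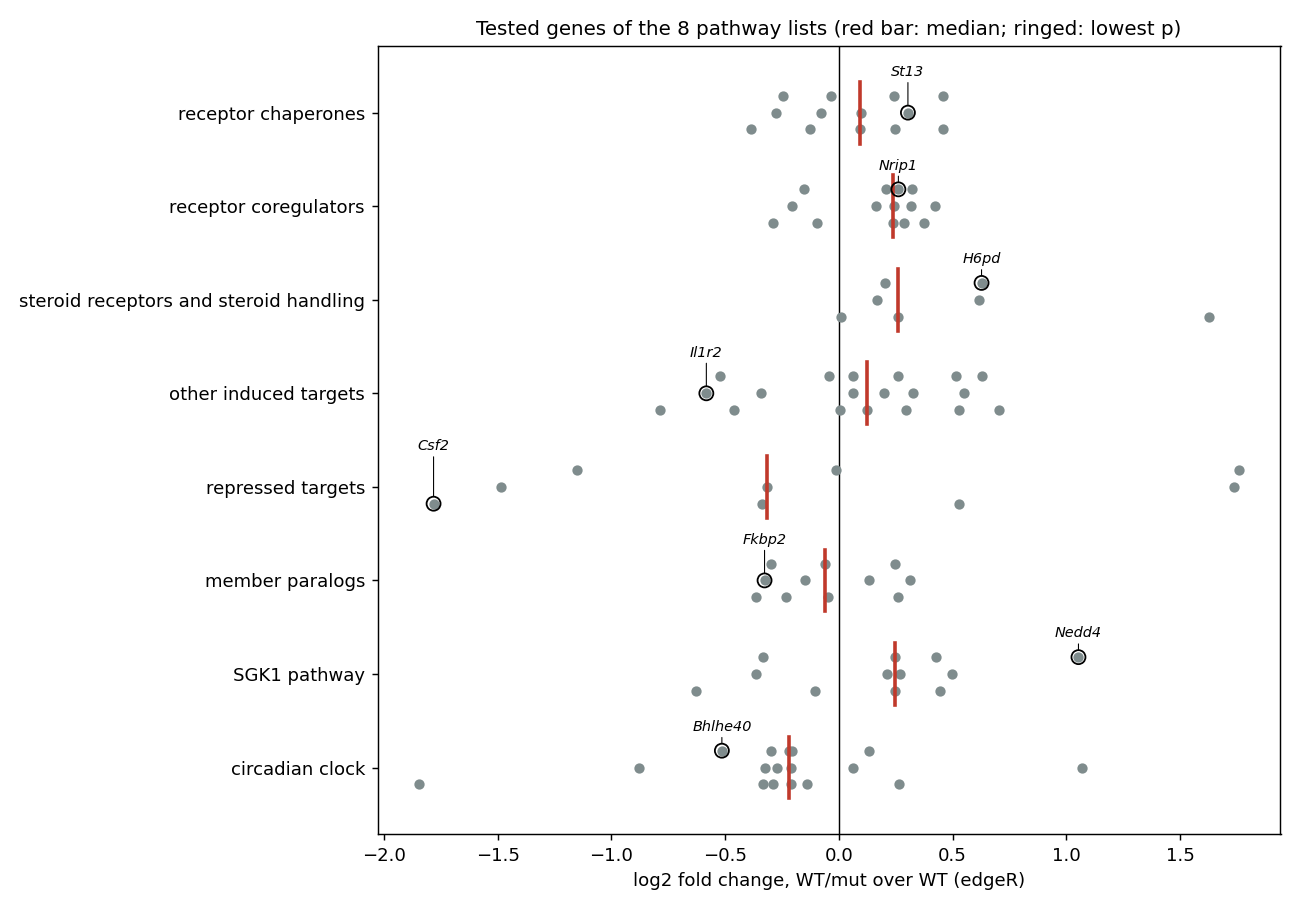
Log2 fold change, WT/mut over WT, of the tested genes of the 8 pathway lists, 1 point per gene, with a red bar at the list median and the gene of lowest p ringed and named. Medians run from -0.32 (repressed targets) to 0.26 (steroid receptors and steroid handling), and no point is a called gene.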

How the data were processed

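The values deposited by the authors are expected counts (reads shared out among transcripts and summed by gene, so not always whole), made with cutadapt 2.10, STAR 2.5.3, RSEM 1.3.0 and the mm10 build, per the submitters' processing notes. DESeq2 is also named there. Columns were matched to libraries by genotype and replicate number in the labels.

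Counts were rounded, and genes were kept by filterByExpr (minimum count 10, minimum total 15). The fit was edgeR 4.0.16 in R 4.3.3 (robust quasi-likelihood F test, TMM factors, no covariate, 5 against 4 libraries), with Benjamini-Hochberg adjustment over all 15521 genes. Each SE was derived as the size of the log2 fold change over the root of F. No 2 libraries of a group agreed within sampling noise. The fit was checked on simulated counts. Of the 54146 identifiers, 54079 were found in GENCODE M21 (GRCm38), version numbers aside. Exon lengths are the union of its exons, which can differ from the length of the transcripts expressed. The order of levels between genes depends on these lengths. Correlations used log2 CPM with a prior count of 2.

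The members and lists were chosen with earlier results of these data known. The text names the members, the 3 genes of lowest p in each list, and for each member the 3 genes most alike, with receptor segments, ribosomal protein genes, pseudogenes and predicted genes set aside. Il1r2, Bhlhe40, Rora and Csf2 had been seen to differ before. A gene of the clock list is not reported here. Icos, Il21, Bcl6, Pdcd1, Sh2d1a, Per2, Per3, Hsd11b2 and the steroid synthesis genes were named outside this rule, after their values were seen. Alternatives tried were DESeq2 1.42.0, limma-voom (limma 3.58.1), other size factors, other filters and leaving out each library.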

Additional observations from a re-analysis of the deposited data

Results flagged for a closer look

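In groups of 4 or 5 libraries, 74 sets of values were searched for a highest or lowest library far from the rest, and chance alone marks about 1 in 20. There were 5 such values. WT replicate 1 had 481 CPM of Fkbp5, against 388 CPM at most in the other WT libraries. WT/mut replicate 7 had 12.9 CPM of Per1, with 9.71 CPM next. It also had a count in 30143 genes, with 20264 next. WT/mut replicate 9 had 114 CPM of Med1, above the other 4 libraries of its group. WT/mut replicate 8 had 15.8 CPM of Nr3c2, with 12.3 CPM next.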

How the results depend on the processing

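Under 15 alternatives each of the 6 members kept the sign of its log2 fold change. With 1 library left out the ranges were 0.76 to 0.96 for Tsc22d3, 0.61 to 1.02 for Per1, 0.37 to 0.49 for Sgk1, 0.24 to 0.38 for Fkbp5, 0.04 to 0.12 for Nr3c1 and -0.77 to -0.32 for Hsd11b1. Levels per kb moved by less than 1 SD under every alternative tried. Of all tested genes 19 were called (5 higher, 14 lower), against 495 with DESeq2 (269 higher, 226 lower). With library size only, and likewise with no filter, 8 were higher. Leaving out 1 library gave 2 to 23 calls, 0 to 12 higher and 2 to 11 lower, and the list genes called stayed at 0. DESeq2 called 1 list gene higher and 4 lower. The cause was not tested.

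Subtracting the group means moved r to 0.39 for Nr3c1 with Hsd11b1, -0.076 with Tsc22d3, -0.47 with Sgk1 and -0.47 with Per1. It moved Hsd11b1 to 0.21 with Tsc22d3, 0.80 with Fkbp5 and -0.29 with Sgk1. It moved Tsc22d3 to -0.16 with Fkbp5, 0.10 with Sgk1 and -0.28 with Per1. Fkbp5 came to -0.29 with Sgk1 and -0.57 with Per1, and Sgk1 to 0.25 with Per1. With 1 library left out, r ran from -0.74 to -0.36 for Hsd11b1 and Sgk1, from -0.95 to -0.73 for Hsd11b1 and Per1, from 0.13 to 0.66 for Fkbp5 and Per1, and from 0.49 to 0.85 for Sgk1 and Per1. No paired analysis was possible because the labels used here give no litter or other link between libraries of the 2 groups.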
